A study of Mus musculus with 5 samples.

Results

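Carbonic anhydrase 2 (Car2) and carbonic anhydrase 8 (Car8) were both higher in adult mouse retina than in newborn mouse cortex, Car2 by 17.6-fold and Car8 by 2.08-fold on the mean of 5 arrays. The 2 genes were picked by the gene symbol of their probes. The deposited table has 21446 probes, and 2 of them carried one of these symbols alone, 1 probe per gene. Both probes had a value on all 5 arrays and so passed the filter on missing values, which left 8798 genes in all. The genes were chosen with these ratios already known, so the ratios of Car2 and Car8 are given as a description, with no test. Whether the probe annotated as Car2 also binds transcripts of its close relatives Car1, Car3 and Car13 was not tested, and Car3 and Car13 had no annotated probe of their own.

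Carbonic anhydrases are enzymes that turn carbon dioxide and water into bicarbonate and a proton, and back, at a zinc ion held by histidines. Car2 is the highly active cytosolic form, known from red cells, kidney, oligodendrocytes and the Müller glia of the retina. Car8 belongs to the carbonic anhydrase-related proteins, which kept the fold of the family but lost the zinc site and have no such activity. It is known as a partner of the type 1 inositol trisphosphate (IP3) receptor, a calcium channel of the endoplasmic reticulum, to which it binds in cerebellar Purkinje cells. In the retina, photoreceptors use glucose largely by aerobic glycolysis and release lactate together with protons, and acid is handled there by carbonic anhydrases, bicarbonate carriers, proton exchangers and proton pumps.

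The retina RNA was a pool from adult C57/B6 mice, and the cortex RNA was a pool from Swiss-Webster mice on postnatal day 1. All 5 arrays carried the same 2 pools, with retina labelled with Cy5 and cortex with Cy3 and no dye swap. Tissue, age, strain and dye therefore change together and cannot be told apart. The arrays are technical replicates per the labels, so an SD or a p-value here measures error of labelling and hybridisation between arrays, not the spread between animals. Values are log2 ratios of retina over cortex, and mean ± SD is over n = 5 arrays. The direction is likely from the titles and the dyes, the log base is likely from the values, and neither is stated in the sources used here. With the direction turned, every higher would read lower, also for the photoreceptor genes Cdhr1 (4.30), Cngb1 (2.97) and Opn1sw (3.28). The other measured cone gene, Rxrg (-0.29), would then read higher.

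The Car2 ratio was far above zero on every array. It stood at 4.07 on array 1, 4.13 on array 2, 4.21 on array 3, 4.08 on array 4 and 4.20 on array 5. Arrays 1 and 4 gave the lowest readings and arrays 3 and 5 the highest, and all of them lay between 16.8-fold and 18.5-fold. The mean was 4.14 ± 0.07. The lowest and the highest array differed by a factor of 1.10, which is small beside the ratio itself.

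Car8 was higher in retina on every array too, by a much smaller factor. Its log2 ratio was 1.10 on array 1, 1.11 on array 2, 0.96 on array 3, 1.08 on array 4 and 1.05 on array 5. It was thus at least 2-fold on 4 arrays and just short of 2-fold, at 1.94-fold, on array 3. The mean was 1.06 ± 0.06, and the readings spanned a factor of 1.11, about as wide as for Car2.

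Car2 exceeded Car8 on all 5 arrays, with no overlap. The log2 ratio of Car2 minus that of Car8 was 2.97, 3.03, 3.26, 3.00 and 3.16 on arrays 1 to 5, with a mean of 3.08 ± 0.12. The retina-over-cortex ratio of Car2 was therefore 8.47 times that of Car8. This compares ratios and says nothing of which transcript was more abundant in either tissue, because ratios hold no level.

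The small deviations of the 2 genes from their own means had opposite signs on each of the 5 arrays. This was not tested. On array 3, Car2 stood 0.07 above its own mean and Car8 0.10 below its own. On array 1, Car2 stood 0.07 below and Car8 0.04 above. The 200 probes nearest in probe number to Car2 had medians between 0.01 and 0.06 on the 5 arrays, and those nearest to Car8 between 0.01 and 0.07. With these local medians subtracted, Car2 averaged 4.11 and Car8 1.02.

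**Figure D1:**
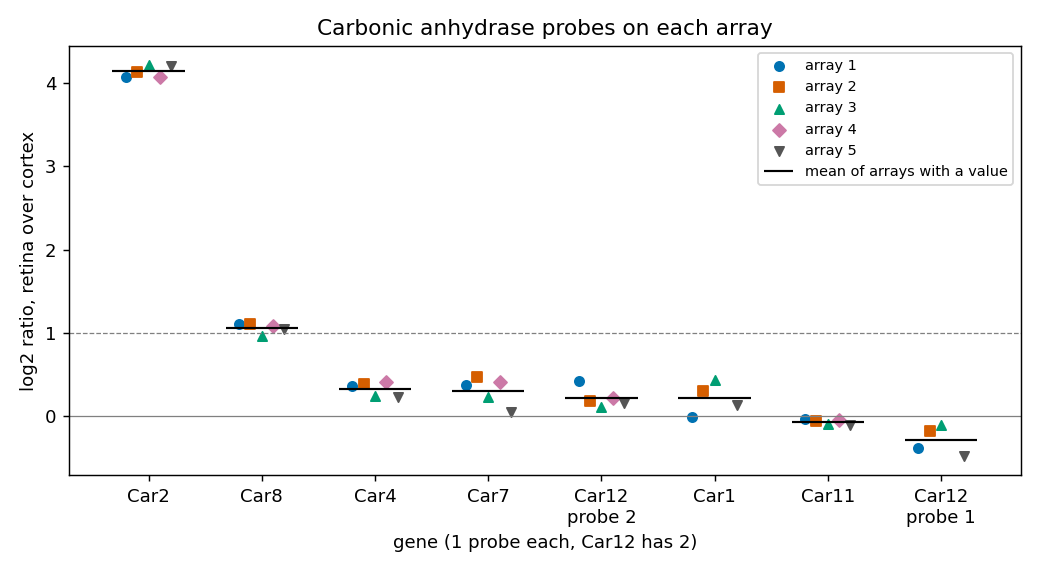
The log2 ratio of retina over cortex is plotted for the 8 annotated carbonic anhydrase probes, with 1 symbol per array, a bar at the mean, a solid line at 0 and a dashed line at 2-fold. Car2 lies above 4 on every array and Car8 between 0.96 and 1.11, while every reading of the other probes lies below 0.5.

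Among all 8798 genes, Car2 had the second highest mean ratio, and 99.98% of genes lay below it. It ranked 5 on array 1 and 2 on each of the other 4 arrays. Car8 ranked 317, with 96.4% of genes below it, and its place on the single arrays ran from 295 to 400. A mean of at least 2-fold higher, with no test, was reached by 356 genes or 4.05% of all, and 39 of these lay below Car8. Of the 356 genes, 264 were at least 2-fold higher on all 5 arrays, and 48, with Car8 among them, on 4 of 5.

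Both genes repeated more closely than most. A smaller SD was found in 34.4% of all genes for Car2 and in 30.2% for Car8. The SD over arrays was 0.066 log2 for Car2 and 0.062 for Car8, against a median of 0.085 over all genes and 0.099 over the 356 genes at least 2-fold higher. Within those 356 genes, 269 had a larger SD than Car2 and 276 a larger SD than Car8.

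**Figure D2:**
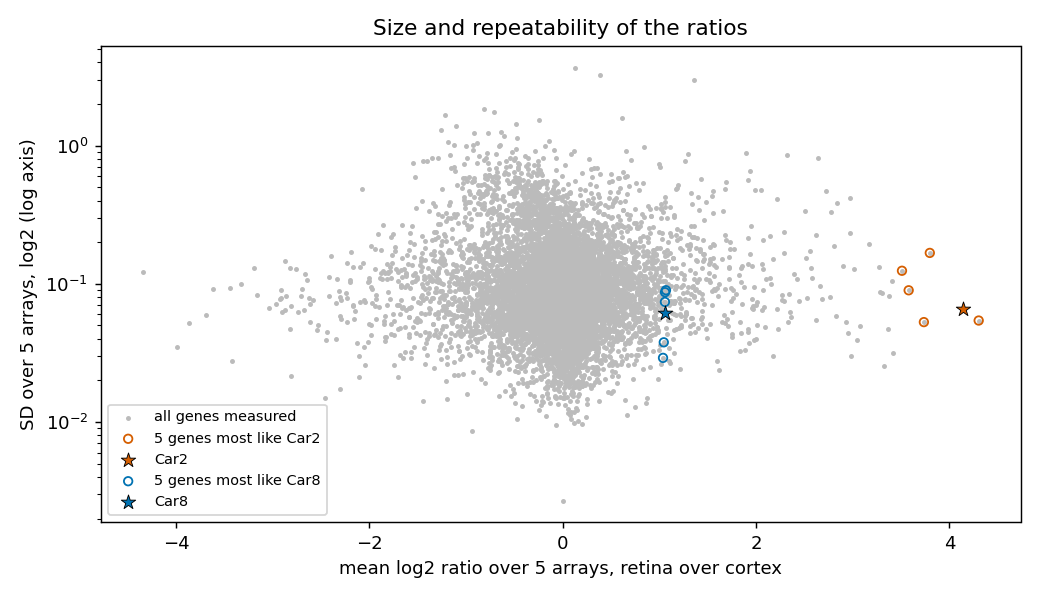
Each grey point is 1 of 8798 genes, with the mean log2 ratio over 5 arrays on the x axis and the SD over arrays on a logarithmic y axis, and stars mark Car2 and Car8. Car2 stands at the right edge beside Cdhr1, and Car8 stands at the outer side of the main body of genes, both with an SD below 0.1.

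Car2 had few genes near it. Likeness was measured as the Euclidean distance over the 5 log2 ratios, so it is mostly likeness of size. The nearest gene was Cdhr1, which encodes a photoreceptor cadherin, at a distance of 0.42. Its ratios were 4.39, 4.28, 4.31, 4.29 and 4.24 on arrays 1 to 5, above those of Car2 on every array, and closest to it on array 5. Next came the hexokinase Hk2 (distance 0.84), the potassium channel Kcnj14 (0.91), the acyltransferase Agpat3 (1.29) and the heparan sulfate sulfotransferase Hs3st3b1 (1.43). Car2 read higher than these 4 genes on every array. The other Hs3st3b1 probe lacked a value on array 4, averaged 0.18 and does not enter its distance.

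Car8 had genes far closer to it than Car2 did. Its 5 nearest genes lay at distances of at most 0.10, namely the splicing factor Sf3b2 (0.09), the zinc finger gene Zfp740 (0.09), the retinoid X receptor Rxra (0.09), the peroxisomal thiolase Acaa1a (0.09) and the IP3 kinase Itpkc (0.10). Sf3b2 had the same mean as Car8, 1.06, and it too was lowest on array 3, at 0.90. Itpkc read 1.10, 1.16, 0.97, 1.13 and 0.98 on arrays 1 to 5. The value of Rxra is the mean of 2 probes far apart, at 1.85 and 0.24, so neither probe alone resembles Car8. The means of Car8 and these 5 genes ran from 1.04 to 1.07. The distances were also close, from 0.09 to 0.10, so no order among the 5 is claimed.

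**Figure D3:**
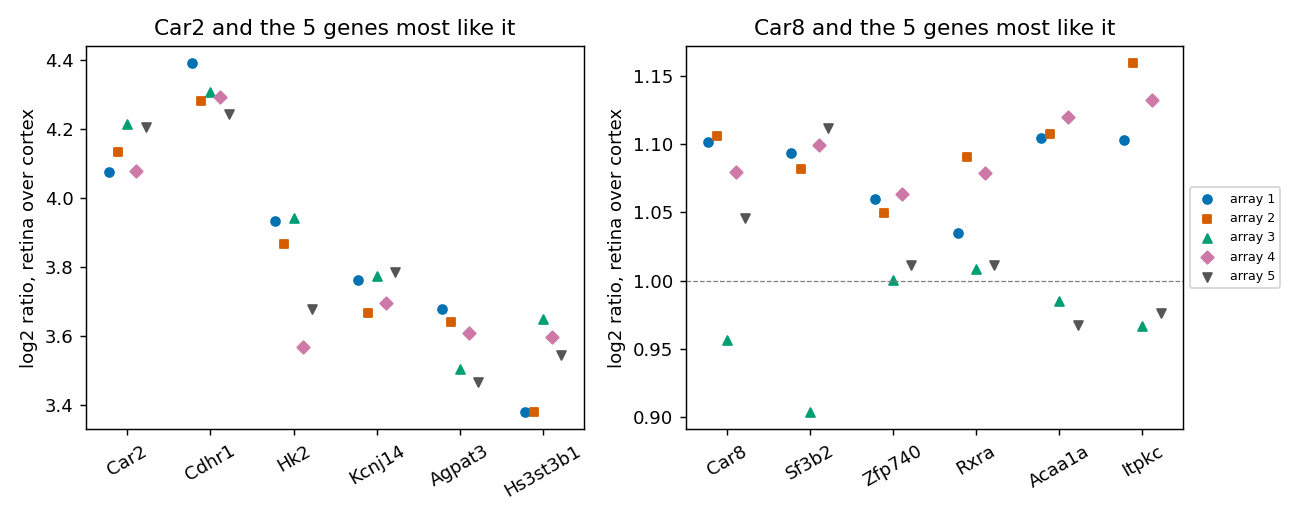
The log2 ratio on each array is plotted for Car2 (left) and Car8 (right) beside the 5 genes at the smallest distance from each, on separate y axes that do not start at 0, with a dashed line at 2-fold on the right. Cdhr1 alone stands above Car2, while the ranges of Car8 and its 5 nearest genes overlap.

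The other measured carbonic anhydrases lay closer to equal in both tissues than Car2 and Car8, with means from -0.07 to 0.32. Of the 16 genes of the family, 7 had an annotated probe, 8 probes in all, and 6 had a value on every array. No annotated probe was found for Car3, Car5a, Car5b, Car6, Car9, Car10, Car13, Car14 and Car15. They may still be among the 9074 probes that the annotation does not list. None of the probes with several symbols named a carbonic anhydrase.

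The 4 measured genes besides Car2 and Car8 were tested against a minimum of 2-fold with limma and Benjamini-Hochberg adjustment over all genes, called the 2-fold test below. None of the 4 passed, and 0 of 4 had an unadjusted p under 0.05, where 6.63% of all genes passed the 2-fold test. Against a ratio of 0 limma called all 4, 3 above and 1 below. It called 73.7% of all genes, so this shows the precision of the repeats. Car12 counts among the 3 through its probe with a value on every array, while its other probe averaged -0.29. The median of the 4 genes, with Car12 taken in this way, was 0.26, against -0.0048 for all genes.

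Car4, the form anchored to the outer face of the cell membrane, stood nearest to Car8 at 0.32 ± 0.08, with readings of 0.36, 0.38, 0.25, 0.41 and 0.23 on arrays 1 to 5. Its highest reading lay below the lowest reading of Car8. Car7, a cytosolic form of neurons, read 0.37, 0.46, 0.22, 0.41 and 0.05, with a mean of 0.30 ± 0.17. The ranges of Car4 and Car7 overlap, so the 2 genes cannot be put in order.

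Car11, a related protein without enzyme activity like Car8, read -0.04, -0.06, -0.10, -0.04 and -0.11 on arrays 1 to 5. Its mean was -0.07 ± 0.03, or 1.05-fold lower, so the readings of the 2 measured genes of this inactive kind did not overlap, with Car8 at least 0.96 and Car11 below 0 on every array. Their difference was not tested, because Car8 had been picked for its ratio.

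Car12, a transmembrane form, had 2 probes on opposite sides of 0. The probe with a value on all arrays read 0.42, 0.18, 0.10, 0.22 and 0.15, a mean of 0.22 ± 0.12. The other probe had no value on array 4 and read -0.39, -0.18, -0.11 and -0.48 on the other arrays. No direction is given for Car12, since without array 4, where both probes count, it stood at -0.04.

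Car1, the other abundant cytosolic enzyme of red cells, was left out of the test because it had no value on array 4. It read -0.01, 0.30, 0.43 and 0.14 on arrays 1, 2, 3 and 5. Its highest reading was less than the lowest of Car8, and far below Car2. In the order of family members, Car2 and Car8 thus each stood clear of the next gene on every array, while Car1, Car4, Car7 and Car12 overlapped.

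Car2 lies on chromosome 3 beside Car3, with Car1 and Car13 next in line, and Car8 lies on chromosome 4 with no other carbonic anhydrase among the 12 protein-coding genes on either side, per a RefSeq table of assembly GRCm38.p6. Because the sources name no genome build for the array, only the order of genes was used. The count of neighbours was chosen after the ratios of Car2 and Car8 had been seen. Of the 12 protein-coding genes on each side of Car2, 7 were measured, with means from -0.68 to 2.66 and a median of -0.25. Only Mtfr1, a regulator of mitochondrial fission, passed the 2-fold test among these 7, at 2.66 ± 0.10. Of all genes, 2.8% passed as higher, and 1 call among so few genes says little about the locus.

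Of the 12 genes on each side of Car8, 11 were measured, with a median of 0.13. Rab2a, a small GTPase of membrane traffic and the next gene to Car8, stood at -1.04 ± 0.10, on the opposite side of 0. Chd7, a chromatin remodeller and the next after it, stood at 0.88 ± 0.09. Plekhf2, an endosomal protein, was the only one of the 11 to pass the 2-fold test, at 2.56 ± 0.17. That is again 1 call among few genes, where 2.8% of all genes passed as higher. Chchd7, a mitochondrial protein gene, came closest to Car8 in size, at 1.11 ± 0.05, and did not pass. No measured neighbour reached the ratio of Car2, which lay above 99.98% of all genes.

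**Figure D4:**
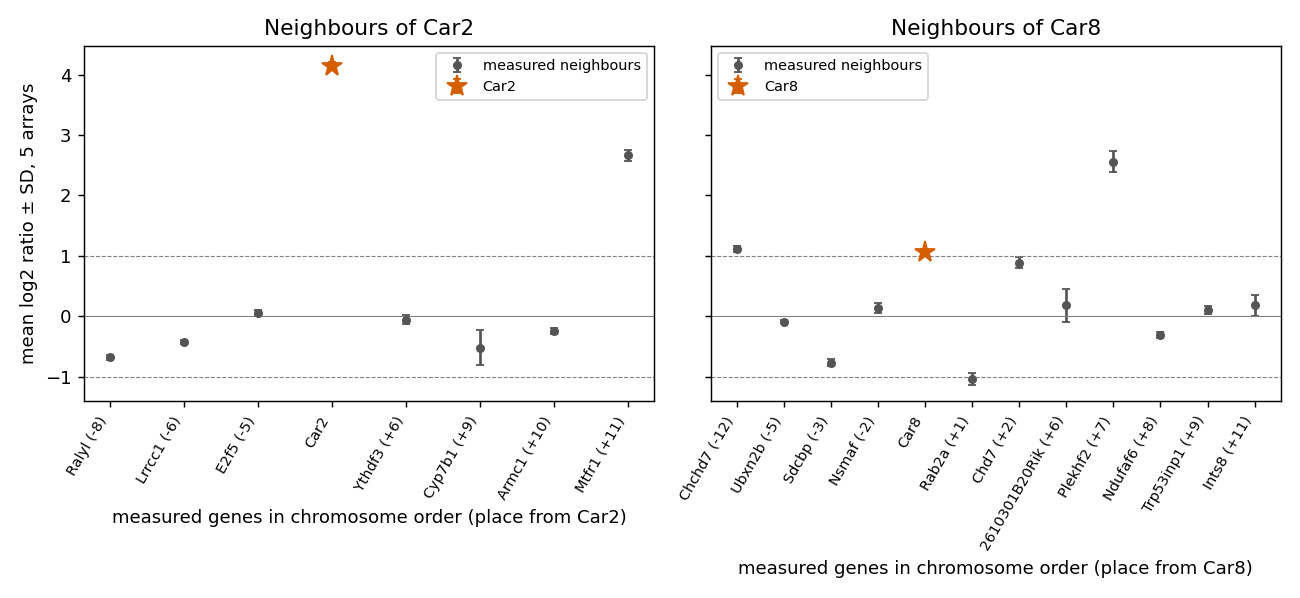
The mean log2 ratio with its SD over 5 arrays is plotted for the measured protein-coding genes around Car2 (left) and Car8 (right), in chromosome order with the place of each from the gene in parentheses, and with dashed lines at 2-fold. Most neighbours lie between the dashed lines, with Mtfr1 and Plekhf2 above 2 and Chchd7 and Rab2a just past the lines.

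A pair of membrane phosphatases carries a carbonic anhydrase-like domain outside the cell, and both read the other way from Car2 and Car8. Ptprz1, a receptor phosphatase of glia and neural progenitors, was lower in retina at -1.85 ± 0.05, or 3.61-fold (adjusted p = 2.3e-06, limma 2-fold test), where 3.83% of all genes passed as lower. It read between -1.90 and -1.77 on the 5 arrays, with the same sign throughout. Ptprg did not pass, at -0.57 ± 0.10.

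Genes that move bicarbonate or exchange protons all had lower ratios than Car2 and Car8, as did 96.4% of all genes. Of 6 measured bicarbonate and anion carriers, 0 passed the limma 2-fold test and 0 had an unadjusted p under 0.05, with a median of -0.06. The farthest from 0 was the anion exchanger Slc4a2, at -0.39 ± 0.52, whose readings ran from -1.15 on array 2 to 0.09 on array 1. In the list of sodium-proton exchangers and their regulators, 0 of 6 passed and 0 had an unadjusted p under 0.05, with a median of -0.07. Both counts of 0 lie near the share of all genes that passed, 6.63%. Tesc, a calcium-binding protein, lay farthest from 0 at -1.21 ± 0.32.

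Among the acid-base and calcium lists, lactate and proton export had the median nearest to Car8. All 4 measured genes had a mean above 0, as did 4349 of all 8798 genes. The median of the 4 was 1.03, and 1 of 4 passed the limma 2-fold test, where 2.8% of all genes passed as higher. That gene was Emb, a chaperone of monocarboxylate transporters, which read 1.00, 1.46, 1.29, 1.37 and 1.45 on arrays 1 to 5 (mean 1.31 ± 0.19, adjusted p = 0.033). The call was lost without array 2, 3, 4 or 5, with an adjusted p from 0.10 to 0.13, and kept without array 1 (adjusted p = 0.0020). The transporter Slc16a1 stood at 1.10 ± 0.03 and Slc16a3 at 0.97 ± 0.36, and neither passed, Slc16a1 with an adjusted p of 0.050 just above the threshold. The 2 probes of Slc16a1 lay at 0.52 and 1.68, either side of Car8, and with each probe tested alone 2 of the 4 genes passed, Emb and Slc16a1. Bsg, the other chaperone, stood at 0.43 ± 0.06.

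The vacuolar proton pump, which acidifies vesicles and lysosomes, had lower ratios than Car8, as did 96.4% of all genes. Of its 13 measured genes, 0 passed the limma 2-fold test and 0 had an unadjusted p under 0.05, a count near the 6.63% of all genes. Their means ran from -0.30 to 0.68 with a median of 0.27, and the accessory subunit Atp6ap2 was the farthest from 0, at 0.68 ± 0.12. The 2 probes of Atp6v1a lay far apart, at 0.54 and -1.08. Against a ratio of 0 limma called 10 of the 13 higher and 1 lower, where it called 3256 and 3225 of all 8798 genes. Cyclases that respond to bicarbonate, such as Adcy10, had 0 of 6 genes measured.

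Most of the measured IP3 and calcium release genes did not pass the 2-fold test. Itpr1, the receptor to which Car8 binds, was not measured. Its relatives Itpr2 (-0.08 ± 0.07) and Itpr3 (0.09 ± 0.15) did not pass. Of 16 measured genes 1 was higher, 1 was lower and 14 did not pass, with a median of -0.04. That share is near that of all genes, of which 2.8% passed as higher and 3.83% as lower. Plcb1, a phospholipase that makes IP3, was lower at -1.99 ± 0.19 (adjusted p = 0.00012, limma 2-fold test). Plcd3, another such enzyme, was higher at 1.73 ± 0.18 (adjusted p = 0.00044), but its 2 probes lay at 0.79 and 2.67, and with the lower one alone it did not pass (adjusted p = 1). Itpkc, which phosphorylates IP3 and was among the genes most like Car8, did not pass either, at 1.07 ± 0.09 (adjusted p = 0.81).

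**Figure D5:**
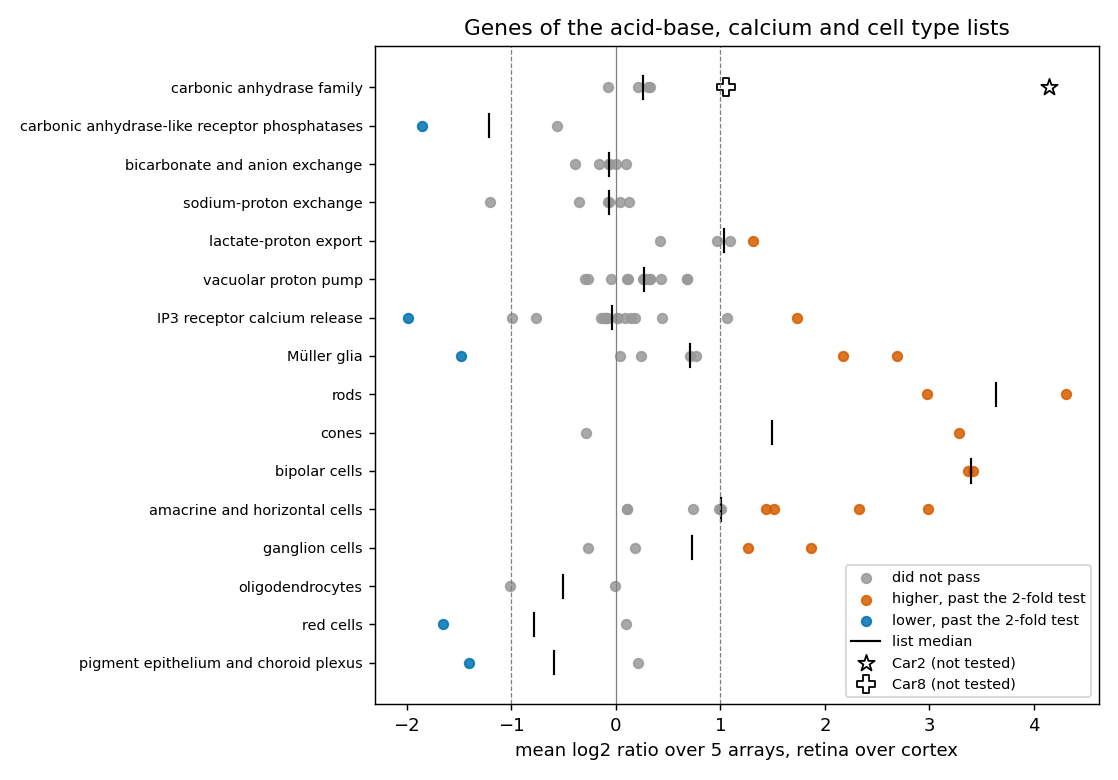
Each point is the mean log2 ratio of 1 gene over 5 arrays, in rows by list, coloured by the 2-fold test, with a black bar at the list median and dashed lines at 2-fold. Open symbols show Car2 and Car8, which were not tested and enter no list median; the points above 3 belong to the rod, cone and bipolar cell lists.

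The tissue labels were set against marker genes, which also include cell types known to hold Car2. In the retina direction, both measured genes of the rod list (Cdhr1 and Cngb1) and both of the bipolar cell list (Otx2 and Gng13) were higher. So were the cone opsin Opn1sw, 4 of 9 amacrine and horizontal cell genes and 2 of 4 ganglion cell genes. Of all genes, 2.8% passed as higher. Whether a listed gene belongs to 1 cell type alone was not tested. With the lower of their 2 probes, Tfap2b of the amacrine list (0.94) and Nefl of the ganglion cell list (1.01) did not pass. The other measured cone gene, the nuclear receptor Rxrg, did not pass and stood at -0.29 ± 0.17, below 0 on all 5 arrays. Only 2 of 15 rod genes and 2 of 11 cone genes were measured, and the cone arrestin Arr3 was not. In bulk RNA, fewer cells of a type and less RNA per cell cannot be told apart.

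The genes listed for Müller glia, where Car2 is known in the retina, gave a mixed picture. Whether they mark these cells alone was not tested. Of 7 measured genes 2 were higher, namely Dkk3, a secreted protein, at 2.69 ± 0.08 and Clu, or clusterin, at 2.18 ± 0.15, 1 was lower, the connexin Gja1 at -1.48 ± 0.14, and 4 did not pass, where 2.8% of all genes passed as higher and 3.83% as lower. The 2 probes of Gja1 lay far apart, at -0.51 and -2.45. The median of the list on the single arrays ran from 0.61 to 0.83. Glutamine synthetase, Glul, the classic enzyme of these cells, stood at 0.71 ± 0.09. The others that did not pass were Apoe at 0.77, Hes1 at 0.24 and Vim at 0.04. Car2 read higher than every one of these 7 genes on every array, and its mean lay above 99.98% of all genes.

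The few measured markers of red cells, oligodendrocytes, pigment epithelium and choroid plexus were lower in retina or did not pass. Of all genes, 3.83% passed as lower. Only 2 of 11 red cell, 2 of 10 oligodendrocyte and 2 of 15 pigment epithelium and choroid plexus genes were measured. Of 2 measured red cell genes, the globin Hbb-b2 was lower at -1.66 ± 0.07 and Slc4a1 stood at 0.10 ± 0.02, with a list median between -0.84 and -0.73 on the arrays. Of 2 oligodendrocyte genes, Olig1 stood at -1.01 ± 0.07 and the myelin gene Mog at -0.01 ± 0.13, and neither passed. Of 2 genes of pigment epithelium and choroid plexus, Ttr was lower at -1.40 ± 0.04. The other was Car12, for which no direction is given. The part of any cell type in the ratios of Car2 and Car8 was not tested.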

How the data were processed

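Total RNA of both pools was measured on 5 two-colour Agilent arrays. The authors' deposited table holds 1 signed value per probe and array, read as log10 ratios because the values stop at exactly 2 and -2, as Agilent's do. Of the scanner, background correction, dye normalization and filters, none is given in the sources. The column median was 0 on every array but array 5 (-7.32e-05), which means that columns were centred in a way not stated. No spot intensities entered the work, so how far a probe stood above background is unknown, and precision is limited by the number of arrays.

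The log2 ratio is the deposited value times 3.32. An exact 0 was read as no value, which occurred 174 to 1068 times an array, most often on array 4. Of 21446 probes, 11813 had 1 symbol, 559 had several and 9074 had none listed, and 11782 were matched by gene identifier to the RefSeq table. A gene's value was the mean of those of its probes that had values on every array (11500 probes, 8798 genes). Across genes, pairs of arrays correlated with Pearson's r from 0.878 to 0.956; genes are not independent replicates.

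The 2-fold test was limma 3.58.1 in R 4.3.3, lmFit with an intercept and treat against a log2 ratio of 1, two-sided, Benjamini-Hochberg over all genes, threshold 0.05; eBayes tested against 0. Tested on simulated ratios of 8798 genes for this comparison, the procedure found 90.0% of the genes given a log2 ratio of 1.5. It found 96.0% of those at 2, with 0 false calls among genes simulated at 0. That 0 says little, because genes at 0 lie far inside the 2-fold minimum. False calls among genes at a log2 ratio of 1 were not simulated. Every carbonic anhydrase is named; other lists name up to 6 passing members, or the 1 farthest from 0, and further ones are examples chosen after their values were seen. The genes, lists and tests were chosen with earlier results of these data known. Alternatives covered arrays left out, centring, scaling, missing values, the probe rule, the minimum fold, the log base, the prior and, for Car2 and Car8, position. No promoter or protein sequence of Car2 or Car8 was used here.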

Additional observations from a re-analysis of the deposited data

Results flagged for a closer look

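Clusterin, Clu, one of the Müller glia genes set beside Car2, had 1 array apart from the rest. Array 5 gave 2.44, while the remaining 4 lay from 2.07 to 2.14, all higher in retina. It was the only one of 30 genes checked in this way, Car2 and Car8 included, and chance flags about 5% of them.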

How the results depend on the processing

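With 1 array left out at a time, Car2 stood between 4.12 and 4.16 and Car8 between 1.05 and 1.08, and 528 to 562 of all genes passed the 2-fold test. The carbonic anhydrases besides Car2 and Car8 then gave 0 passes, the acid-base and calcium lists together 3 to 4 and the marker lists 16. Both Car2 and Car8 moved by less than 1 SD under the alternatives tried, except for the log base. Read as log2, Car2 stood at 1.25 and Car8 at 0.32, and 7 of all genes, 0 acid-base and calcium genes and 1 marker gene passed, which follows from the smaller ratios. Scaling or centring of the arrays gave 4.19 and 4.14 for Car2 and 1.07 and 1.06 for Car8. A minimum of 1.5-fold passed 1408 genes and 8 of the 47 acid-base and calcium genes, against 583 and 4 at 2-fold. Against a ratio of 0 limma passed 6481 genes, 4 of 4 other carbonic anhydrases, 33 of 47 acid-base and calcium genes and 29 of 32 marker genes. Each of these counts follows from its minimum. With the median probe, the lower of 2, Plcd3 (0.79), Nefl (1.01) and Tfap2b (0.94) no longer passed, and with arrays scaled Nefl did not pass either (adjusted p = 0.076, limma). No named gene that passed changed sign. Each ratio already pairs the 2 pools within its array, and all arrays form 1 group, so there was no further pairing to use.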
